A study of Homo sapiens with 12 samples.

Results

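The comparison set a mutant Notch1 receptor against the intact receptor in MCF-10A cells, an established non-tumorigenic line of human mammary epithelium. Its members were 6 of the 12 arrays in the series, 3 from cells given Notch1 L1601P+ΔP and 3 from cells given wild-type full-length Notch1, chosen by those titles and compared directly rather than through a control. All cells grew under standard conditions for the line, were infected with retrovirus and were harvested 48 h later. The other 6 arrays came from cells given the vector control (3 arrays) or NICD (3 arrays), the free intracellular domain of the receptor, whose sample descriptions add gfp without saying whether it is a fused tag or a reporter. Every group, vector included, had thus been exposed to retrovirus, and the introduced Notch1 forms were added to the NOTCH1 gene of the cells themselves. The promoter that drove each construct, the virus dose and the share of cells infected were not stated in the labels. The labels call the 3 samples of a group biological replicates but do not say whether they came from separate cultures or infections. A p-value therefore reflects only the spread of such samples within groups, pooled over all 12 arrays and drawn toward the spread of all genes.

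Notch1 is a surface receptor that is cut into a non-covalently joined pair of subunits before it reaches the membrane. A ligand such as JAG1 on a neighbouring cell pulls the pair apart, an ADAM protease and then gamma-secretase cut the remaining stub, and the intracellular domain moves to the nucleus, where it joins the DNA-binding protein RBPJ and a Mastermind coactivator and turns on genes of the HES and HEY repressor families. L1601P sits in the heterodimerization domain, which joins the subunits, and belongs to a class of leukaemia mutations that allow cleavage without ligand, and ΔP takes away the PEST region, through which the intracellular domain is marked for degradation. The comparison therefore asks how gene expression differs between cells given the receptor with and without these changes.

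NOTCH1 itself was read by 2 probe sets (sets of short probes that give 1 value together), and values here are log2 signals unless a fold is named. On the dimmer probe set the vector arrays stood at 6.42, 6.43 and 6.77, the intact receptor arrays at 9.11, 9.19 and 9.17, and the mutant receptor arrays at 8.72, 8.76 and 8.73. The NICD arrays stood at 8.79, 8.75 and 8.83. Both receptor groups and NICD lay clear of vector, and the mutant arrays lay below the intact arrays without overlap. The difference between mutant and intact was -0.42 ± 0.08 (standard error of the fit, 3 arrays a group, adjusted p = 0.0269 over all 54675 probe sets, of which 1.63% were called), and its call was lost after a further cyclic loess normalization (adjusted p = 0.0601) and without each of the 6 arrays in turn (0.0560 to 0.108). On the brighter probe set the 4 groups lay close together, at 9.44 ± 0.06 (SD) for vector, 9.52 ± 0.03 for the intact receptor, 9.50 ± 0.05 for the mutant receptor and 9.72 ± 0.10 for NICD. There the mutant receptor differed from the intact receptor by -0.02 ± 0.06 (adjusted p = 0.916), a value whose sign turned under cyclic loess (0.045). Against vector, the dimmer probe set was higher by 2.62 with the intact receptor, 2.20 with the mutant receptor and 2.25 with NICD. The brighter probe set was higher by 0.08, 0.06 and 0.28 in the same order, and so followed the introduced forms far less. The exons that each probe set reads were not analysed here. Array medians lay between 5.64 and 5.70 over all 12 arrays, and 3′ minus 5′ control signals, a sign of RNA integrity, ran from -0.023 to 0.013 (GAPDH) with the intact receptor and from -0.024 to 0.006 with the mutant receptor. For ACTB they ran from 0.291 to 0.313 and from 0.246 to 0.368. On the first principal component of all genes the mutant arrays (-2.70 to -1.26) stood apart from the intact arrays (-18.9 to -17.1), which lay next to vector (-21.1 to -19.1), while NICD lay at 38.4 to 41.5. On the second component the mutant arrays (-14.5 to -10.2) lay outside all other arrays, NICD included (-2.67 to 8.91).

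Expression differed between the receptors at 735 of 19775 genes tested (3.72% of all genes, limma adjusted p under 0.05), of which 368 were higher with the mutant receptor (1.86%) and 367 lower (1.86%). The differences were unequal in size, since 44 genes were at least 2-fold higher and 0 genes were at least 2-fold lower with the mutant receptor. The median called gene was higher by 0.44 or lower by 0.31 on the log2 scale, and the median over all genes was -0.0082. In each of the 735 genes the 3 mutant arrays lay wholly above or wholly below the 3 intact arrays, as they did in 27.2% of all genes. At an unadjusted p under 0.05 there were 1728 higher and 2061 lower genes. The count of calls depended on single arrays, and was 462 without mutant array 1, 403 without mutant array 2, 474 without intact array 2 and 409 without intact array 3. The higher calls made up 50.1% of all calls, 62.5% after cyclic loess normalization, 43.4% without genes of a mean under 5 and 36% with an intensity trend in the variance.

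**Figure D1:**
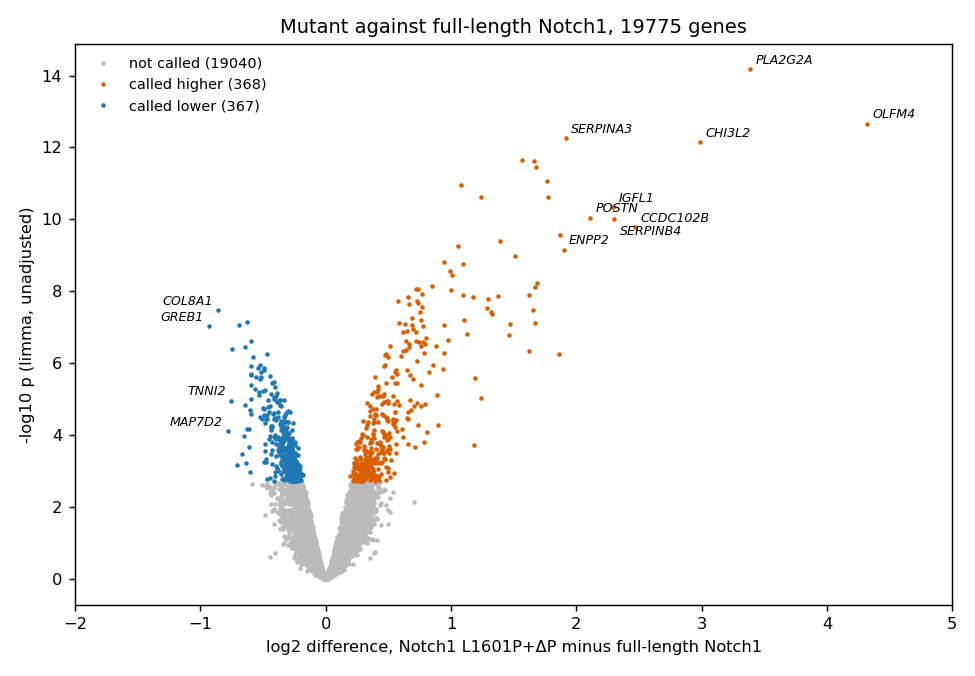
Each point is 1 of 19775 genes, with the log2 difference between mutant and intact Notch1 on the x axis and -log10 of the unadjusted limma p on the y axis. Called genes are coloured by direction (368 higher in orange, 367 lower in blue). The higher arm reaches 4.32 (OLFM4), and the lower arm ends at -0.93 (GREB1).

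On the brightest probe set of each gene, the 3 largest rises from the intact to the mutant receptor were at genes for secreted proteins. OLFM4, a secreted glycoprotein of epithelial stem and inflamed cells, stood at 5.68, 5.98 and 5.92 with the intact receptor and at 10.13, 10.04 and 10.37 with the mutant receptor. The lowest mutant array was thus far above the highest intact array, and the difference of 4.32 ± 0.13 amounted to 19.9-fold (adjusted p = 2.18e-09). PLA2G2A, a secreted phospholipase with antibacterial activity, stood at 10.09, 10.08 and 10.07 with the intact receptor and at 13.30, 13.56 and 13.55 with the mutant receptor, which was 10.4-fold higher (3.38 ± 0.07, adjusted p = 1.34e-10). CHI3L2, a chitinase-like protein without enzyme activity, stood at 6.42, 6.60 and 6.32 against 9.31, 9.48 and 9.50, which was 7.91-fold higher (2.98 ± 0.10, adjusted p = 3.50e-09). Neither gene's arrays overlapped between the receptors.

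OLFM4 and PLA2G2A were also among the 7 genes called between the intact receptor and vector (0.0354% of all genes), where they differed by 2.24 and 3.25. For these genes the intact receptor therefore sat between vector (3.62 for OLFM4 and 6.83 for PLA2G2A) and the mutant receptor, and NICD was higher again, at 13.43 and 14.48. CHI3L2 differed by 0.42 between the intact receptor and vector and was not called there (adjusted p = 0.633). The other genes among the 7 were RAP1A, PDIA4, CCN1, SERPINA3 and HSD17B2.

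The next largest differences covered protease inhibitors, growth factor-like proteins and matrix proteins. SERPINB4 (2.30 ± 0.11), an intracellular serpin of squamous epithelium, stood at 5.07, 5.41 and 5.38 with the intact receptor against 7.51, 7.60 and 7.67. SERPINA3 (1.92 ± 0.06), the acute-phase inhibitor alpha-1-antichymotrypsin, stood at 11.41, 11.38 and 11.30 against 13.28, 13.31 and 13.24. IGFL1 (2.30 ± 0.11) and IGFL2 (1.69 ± 0.12) belong to a small family of secreted proteins that resemble insulin-like growth factors. Both lay higher with the mutant receptor on every array, with IGFL1 at 8.24 to 8.47 against 10.56 to 10.78.

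POSTN (2.11 ± 0.10), the matrix protein periostin, stood at 3.87, 3.79 and 3.74 with the intact receptor, near the lowest signals of the arrays, and at 5.90, 6.07 and 5.74 with the mutant receptor. CCN1 (1.77 ± 0.07), a secreted matricellular protein, stood at 9.24, 9.27 and 9.32 against 10.94, 11.13 and 11.08. ENPP2 (1.90 ± 0.11) codes for autotaxin, which makes lysophosphatidic acid, and HSD17B2 (1.78 ± 0.08) for an enzyme that inactivates estradiol. The remaining genes of the 15 were CCDC102B (2.47 ± 0.13), the Notch feedback regulator NRARP (1.87 ± 0.10), the transcriptional cofactor LBH (1.86 ± 0.19) and the membrane protein TMEM45A (1.68 ± 0.06). All 15 had an adjusted p of at most 0.000120, no overlapping arrays, and a call under each of the 12 alternatives. For several of them the size rested on the probe set read. The other ENPP2 probe set, equally bright, differed by 3.32, the other CCDC102B probe set by 0.18 and the 4 POSTN probe sets by 0.17 to 2.11.

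**Figure D2:**
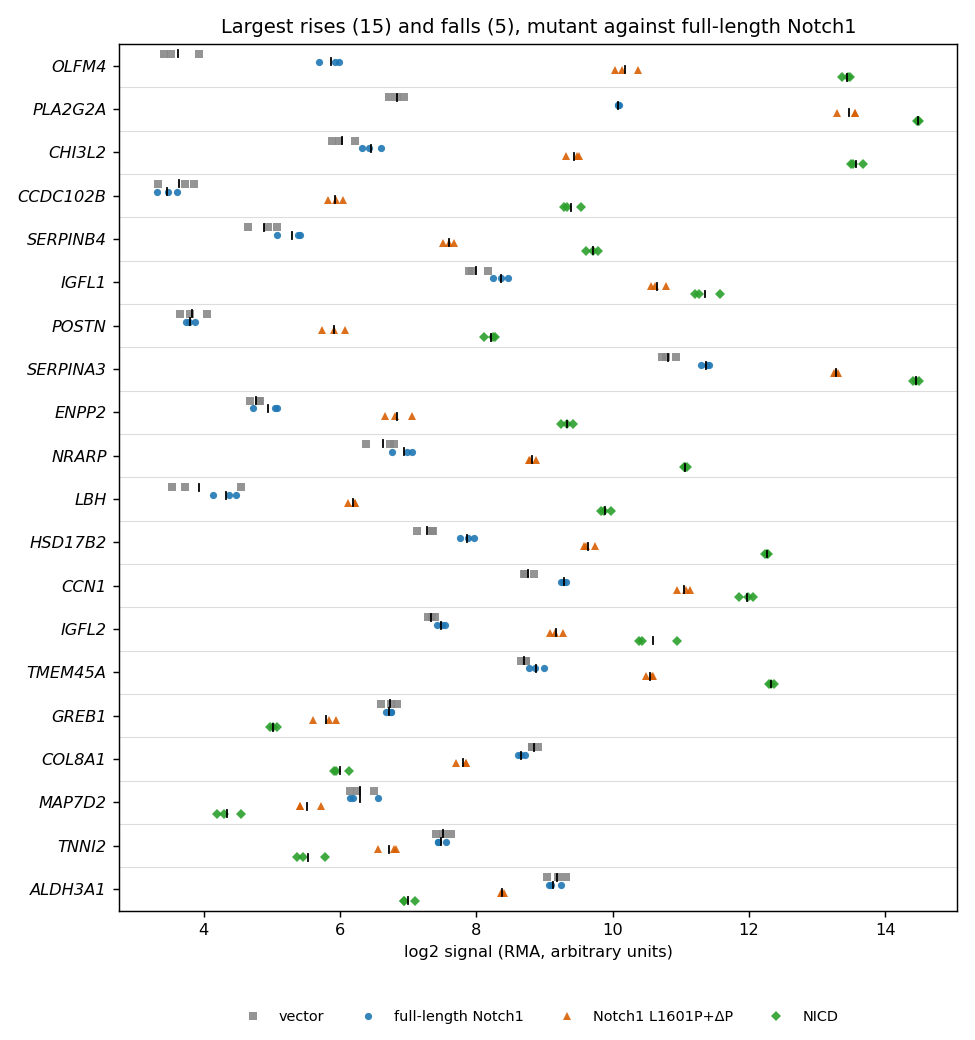
Points are the log2 signals of the 12 single arrays for 15 genes most raised and 5 most lowered with the mutant receptor, and black ticks are means of 3 arrays in each group. In each gene the orange mutant arrays lie clear of the blue intact arrays, and the green NICD arrays lie further out in the same direction.

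RBPJ, the DNA-binding partner of the intracellular domain, binds sites with the core letters TGGGAA. Those letters were searched on both strands from 250 bases before to 50 bases after each gene start in RefSeq promoters (GRCh38.p14). They occurred in 24% of all 35116 promoters, in 21.9% of the 439 promoters of genes called higher and in 18.9% of the 502 promoters of genes called lower, so the share in called genes was not above that of all promoters. The longer letters GTGGGAA occurred in 6.25%, 5.92% and 5.58%. The promoters of HES4, from a family of direct RBPJ targets, and of OLFM4 and PLA2G2A, with the largest differences, are shown because they hold a match. Of 3 PLA2G2A promoters, 2 hold a match, and the first is shown. Among the other large rises, SERPINA3 and CCDC102B also hold a match. CHI3L2, SERPINB4, IGFL1, IGFL2, LBH, POSTN and TMEM45A hold none. NRARP, HES2, JAG1 and NOTCH3 hold none in this window either, and other distances were not searched. Each line gives the 250 bases before the gene start, 5′ to 3′ on the gene's own strand, with TGGGAA or its reverse TTCCCA in capitals. They lie at chr1:1000098-1000347 on the minus strand (HES4), chr13:53028563-53028812 on the plus strand (OLFM4) and chr1:19979660-19979909 on the minus strand (PLA2G2A).
HES4: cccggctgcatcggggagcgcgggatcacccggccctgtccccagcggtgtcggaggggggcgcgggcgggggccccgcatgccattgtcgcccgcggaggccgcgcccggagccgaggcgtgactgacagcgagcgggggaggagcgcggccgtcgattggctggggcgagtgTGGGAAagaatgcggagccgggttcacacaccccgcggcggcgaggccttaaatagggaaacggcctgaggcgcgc
OLFM4: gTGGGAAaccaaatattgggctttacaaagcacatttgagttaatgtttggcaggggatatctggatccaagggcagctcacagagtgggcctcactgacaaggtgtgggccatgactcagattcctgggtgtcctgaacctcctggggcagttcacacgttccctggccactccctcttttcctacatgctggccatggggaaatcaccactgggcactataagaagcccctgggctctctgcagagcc
PLA2G2A: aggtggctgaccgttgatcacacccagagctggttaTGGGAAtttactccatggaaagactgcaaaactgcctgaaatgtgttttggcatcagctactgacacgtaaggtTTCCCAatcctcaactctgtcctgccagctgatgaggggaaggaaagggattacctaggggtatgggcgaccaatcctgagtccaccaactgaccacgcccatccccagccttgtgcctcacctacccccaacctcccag
The match begins at base -76 from the start in HES4, at -249 in OLFM4, and at -214 and -140 in PLA2G2A. A match in letters is a description of the sequence and was not tested for binding.

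Genes lower with the mutant receptor showed smaller differences. GREB1, an estrogen-responsive gene, stood at 6.68, 6.75 and 6.74 with the intact receptor and at 5.83, 5.60 and 5.94 with the mutant receptor (-0.93 ± 0.08, adjusted p = 3.02e-05). Its arrays did not overlap, but its dimmer probe sets differed by -0.011 and 0.0055. COL8A1, a short-chain collagen, stood at 8.72, 8.65 and 8.60 against 7.84, 7.71 and 7.85 (-0.86 ± 0.07, adjusted p = 1.45e-05). ALDH3A1, an aldehyde dehydrogenase, stood at 9.10, 9.06 and 9.24 against 8.40, 8.37 and 8.37 (-0.75 ± 0.08, adjusted p = 9.48e-05). In both genes the 3 mutant arrays sat close together and below all intact arrays.

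ITGB4, the integrin chain that anchors basal epithelial cells in hemidesmosomes, stood at 10.99, 11.02 and 10.99 with the intact receptor and at 10.38, 10.35 and 10.35 with the mutant receptor (-0.64 ± 0.06, adjusted p = 8.80e-05). Of its 5 probe sets, 3 were called lower, and the others, with dimmer signals, differed by 0.11 and 0.26. The efflux pump ABCC3 (-0.69 ± 0.06), xanthine dehydrogenase XDH (-0.64 ± 0.09), the troponin chain TNNI2 (-0.76 ± 0.11), the microtubule-linked MAP7D2 (-0.78 ± 0.13) and the non-coding RNA GSEC (-0.65 ± 0.12) kept their calls under all 12 alternatives. For the other genes among the 12 largest falls, calls depended on single arrays. AGR2 (-0.70 ± 0.15), a secretory disulfide isomerase of luminal cells, lost its call without mutant array 2 or 3 or any intact array (highest adjusted p 0.108). RNASE7 (-0.67 ± 0.13), an antimicrobial ribonuclease, lost it without mutant array 2 or 3 or intact array 3 (0.0789). CRACD (-0.64 ± 0.14), an actin regulator, lost it without any mutant array or intact array 1 or 2, and when its 3 probe sets were averaged (0.136).

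Among 21 Notch target genes, 7 were called higher with the mutant receptor (33.3%, against 1.86% of all genes) and 0 lower, and their median difference was 0.21 against -0.0082 over all genes. NRARP, which feeds back on the Notch complex, stood at 7.06, 6.76 and 6.98 with the intact receptor and at 8.88, 8.77 and 8.78 with the mutant receptor (adjusted p = 3.43e-07). HES4, a transcriptional repressor, stood at 7.09, 7.12 and 7.08 against 8.30, 8.38 and 8.15 (1.18 ± 0.09, adjusted p = 7.87e-06). HEY1, a repressor of the same wider family, stood at 7.09, 6.93 and 6.88 against 7.68, 7.76 and 7.78 (0.77 ± 0.06, adjusted p = 1.29e-05). None of these genes had overlapping arrays.

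HES2 (0.62 ± 0.06), another repressor, JAG1 (0.62 ± 0.06), SNAI2 (0.56 ± 0.06), a factor of basal mammary cells, and NOTCH3 (0.48 ± 0.07) completed the called targets. The other, dimmer HES2 probe sets differed by 0.20 and 0.38 and were not called (limma adjusted p = 0.460 and 0.0838 over all probe sets). HES1, the best-known target, stood at 9.76, 9.61 and 9.67 with the intact receptor and at 9.999, 9.85 and 9.99 with the mutant receptor. Its arrays did not overlap, but the difference of 0.27 ± 0.09 was not called (adjusted p = 0.141), although it was called after cyclic loess or with an intensity trend in the variance. HEY2 lay near the lowest signals in both groups (3.73 to 3.76 against 3.77 to 4.10), with a difference of 0.21 ± 0.08 (adjusted p = 0.169) that was called without mutant array 2. The cyclin gene CCND1 differed by 0.23 ± 0.07 (adjusted p = 0.102), MYC by -0.09 ± 0.05 (0.374) and DTX1 by 0.19 ± 0.09 (0.284). LFNG, a fringe enzyme that modifies Notch receptors, differed by -0.36 ± 0.10, in the opposite direction to the called targets, and was not called (adjusted p = 0.0858). The intensity trend also called CCND1 and LFNG.

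Of the 4 receptor genes, NOTCH3 was called, higher with the mutant receptor (25%, a single gene, against 1.86% of all genes). NOTCH3 stood at 6.23, 6.35 and 6.27 with the intact receptor and at 6.85, 6.77 and 6.69 with the mutant receptor (adjusted p = 0.00292). Its other, dimmer probe set differed by 0.21 and was not called (limma adjusted p = 0.326 over all probe sets). NOTCH2 (-0.02 ± 0.08) and NOTCH4 (0.05 ± 0.10) were not called, and their signs turned under some alternatives. Of 11 ligands, 1 was called higher and 2 lower (9.09% and 18.2%, against 1.86% each over all genes). JAG1 stood at 10.80, 10.87 and 10.78 against 11.35, 11.39 and 11.56 (adjusted p = 0.000109), while JAG2 stood at 9.23, 9.01 and 9.19 against 8.62, 8.57 and 8.42 (-0.61 ± 0.09, adjusted p = 0.00216). The 2 Jagged ligands thus differed in opposite directions, each without overlap between the receptors. DLK2, a non-canonical relative of the ligands, was also lower (9.27, 9.16 and 9.22 against 8.66, 8.65 and 8.65, difference -0.56 ± 0.07, adjusted p = 0.000403). The 8 other ligands differed by -0.13 to 0.16.

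None of the 13 genes for enzymes that mature and cleave the receptor was called by limma (an unadjusted p under 0.05 was reached by 0 higher and 2 lower genes), and their differences ran from -0.36 to 0.16. Among 26 genes of the nuclear complex, its corepressors and its turnover, 0 were called higher and 2 lower (0% and 7.69%, against 1.86% each over all genes). DTX4, a ubiquitin ligase of the Deltex family, stood at 9.35, 9.25 and 9.34 with the intact receptor and at 8.98, 9.01 and 8.93 with the mutant receptor (-0.34 ± 0.06, adjusted p = 0.00723). MAML2, a Mastermind coactivator, differed by -0.28 ± 0.06 (adjusted p = 0.0286), a call lost without each of the 6 arrays in turn except intact array 3, after cyclic loess and in a fit of the 6 arrays alone (highest adjusted p 0.112). MAML3 (-0.30 ± 0.09, adjusted p = 0.0774) and RBPJ (-0.10 ± 0.06, 0.391) were not called.

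**Figure D3:**
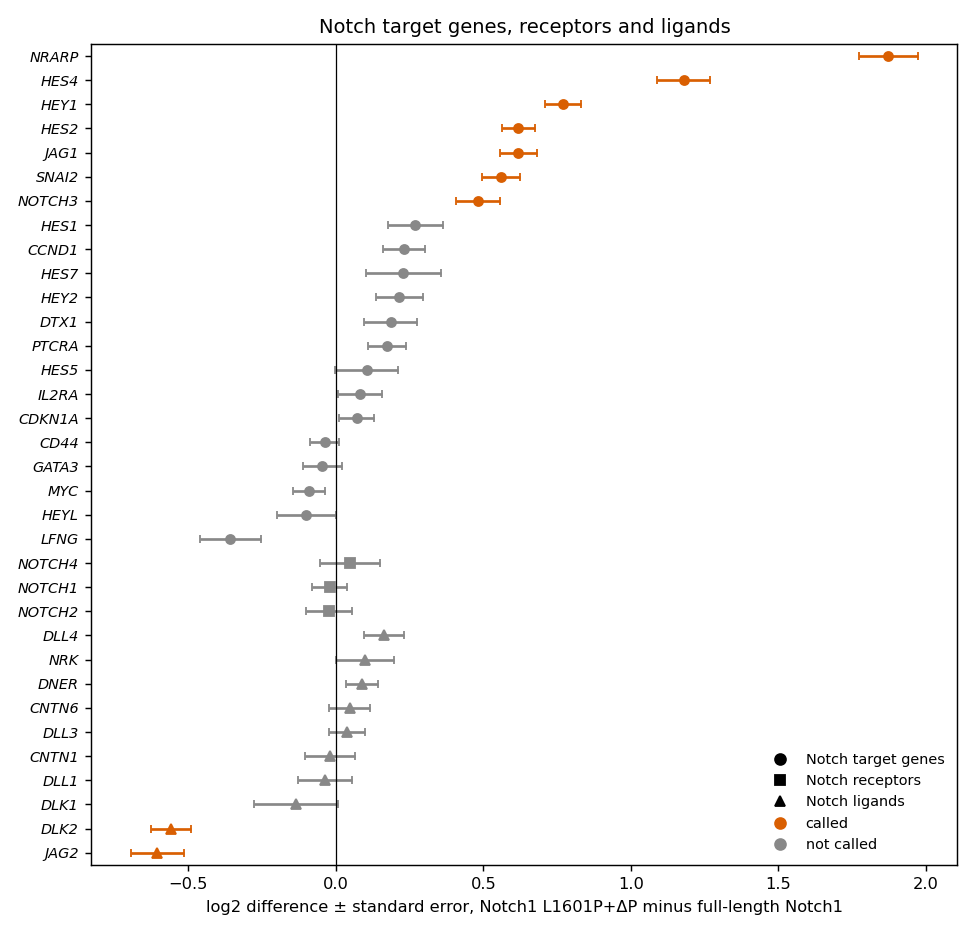
Points are log2 differences between mutant and intact Notch1 for Notch target genes (circles), receptors (squares) and ligands (triangles), and bars are standard errors of the limma fit over 3 arrays a group. Orange marks called genes. The targets extend to 1.87 (NRARP), and JAG2 and DLK2 lie at -0.61 and -0.56. NOTCH1 is shown on its brighter probe set, which followed the introduced forms far less than the dimmer one.

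The list of secreted defence proteins held the largest single differences. All lists were drawn up with earlier results of these arrays known, so this place and the shares below are a description, not a test. Of 20 secreted defence and acute-phase genes, 6 were called higher and 1 lower (30% and 5%, median 0.13), and here and in the lists that follow the share over all genes was 1.86% in each direction. OLFM4, PLA2G2A and CHI3L2 led the list, followed by C1S (0.76 ± 0.07), a protease of the classical complement pathway. Of 17 serpins and secreted antiproteases, 6 were called higher and 0 lower (median 0.22). PI3, the elastase inhibitor elafin, stood at 12.19, 12.31 and 12.18 with the intact receptor and at 13.92, 13.90 and 13.86 with the mutant receptor (1.67 ± 0.06, adjusted p = 8.01e-09). SERPINB3 (1.29 ± 0.10), the close relative of SERPINB4, moved the same way, and since these genes are near-identical copies their probe sets could share signal.

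Of 28 inflammatory cytokines and NF-kB target genes, 8 were called higher and 0 lower (median 0.16). CXCL14, a chemokine of resting epithelium, stood at 5.33, 5.21 and 5.22 against 6.75, 7.14 and 6.87 (1.67 ± 0.12, adjusted p = 5.69e-06). The cytokine IL1B stood at 8.32, 8.45 and 8.50 against 9.18, 9.30 and 9.17 (0.79 ± 0.08, adjusted p = 7.55e-05). The cytokine IL32 (0.70 ± 0.08) and the chemokine CCL20 (0.56 ± 0.07) were higher too. None of the 4 had overlapping arrays. Of 28 type I interferon response genes, 2 were called higher and 1 lower (7.14% and 3.57%, against 1.86% each over all genes, median 0.08).

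The epithelial lists split between members. Of 17 basal and myoepithelial markers, 4 were called higher and 4 lower (median -0.09). MME, the surface protease CD10 of myoepithelium, stood at 8.43, 8.60 and 8.52 with the intact receptor and at 9.52, 9.62 and 9.57 with the mutant receptor (1.05 ± 0.06, adjusted p = 6.17e-07), and the basal keratin KRT14 was higher by 0.37 ± 0.07. KRT15, a keratin of basal progenitor-like cells, stood at 12.58, 12.65 and 12.66 against 12.22, 12.15 and 12.04 (-0.49 ± 0.06, adjusted p = 0.000265). DST, the hemidesmosomal linker dystonin, was lower by 0.48 ± 0.08. Of 25 luminal markers, 0 were called higher and 2 lower, AGR2 and EPCAM (-0.28 ± 0.06). EPCAM lost its call without each of the 6 arrays in turn except mutant array 3 and in a fit of the 6 arrays alone (highest adjusted p 0.114).

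Calls in the adhesion list were mostly lower and those in the keratinocyte differentiation list higher. Of 22 integrin, laminin and matrix adhesion genes, 1 was called higher and 6 lower (median -0.17). The lower genes included ITGB4 and its partner ITGA6 (-0.27 ± 0.05), which lost its call without mutant array 2 or intact array 3 (highest adjusted p 0.0644). ITGA5, a chain of the fibronectin receptor, was the higher gene, at 8.60, 8.59 and 8.51 against 9.05, 9.22 and 9.03 (0.53 ± 0.07, adjusted p = 0.00109). Of 26 keratinocyte differentiation genes, 5 were called higher and 0 lower (median 0.07), with PI3, the cornified envelope protein IVL (0.68 ± 0.10) and the kallikrein KLK10 (0.68 ± 0.09) in front. Of 23 epithelial junction genes, 3 were called higher, CLDN1 of tight junctions (0.41 ± 0.05) and DSG3 of desmosomes (0.32 ± 0.05) among them, and 1 lower, the desmosomal plaque gene PKP2 (-0.59 ± 0.07).

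Of 27 mesenchymal and EMT (epithelial-mesenchymal transition) markers, 5 were called higher and 0 lower (median 0.09). The fibrillin gene FBN1 stood at 5.70, 5.86 and 5.80 with the intact receptor and at 6.63, 6.96 and 6.70 with the mutant receptor (0.98 ± 0.09, adjusted p = 6.44e-05). ZEB2, a repressor of E-cadherin, lay at low signals (4.39, 4.34 and 4.58 against 5.41, 5.58 and 5.01, difference 0.89 ± 0.15, adjusted p = 0.00413). Its 4 other probe sets were not called and differed by 0.14 to 0.31, and the mean of all 5 by 0.37. S100A4 was higher by 0.54 ± 0.08, and SNAI2 also belongs to this list. CDH1, the epithelial cadherin, differed by -0.0070 (adjusted p = 0.962) and CDH3 by -0.0063 (0.970), and these genes were named after their values were seen.

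Of 33 DNA replication genes, 0 were called higher and 1 lower (3.03%, against 1.86% of all genes, median -0.12). An unadjusted p under 0.05 was reached by 11 of them, all lower, against 2061 lower genes of the 19775. Of 30 mitosis genes 0 were called by limma, and 0 had an unadjusted p under 0.05 (median -0.06). Of 15 CDK inhibitors and growth arrest genes, 3 were called higher and 0 lower (median -0.03). GAS1, a membrane protein linked to growth arrest, stood at 9.19, 9.17 and 9.19 with the intact receptor and at 10.07, 10.13 and 10.17 with the mutant receptor (0.95 ± 0.06, adjusted p = 1.39e-06). GADD45A, a stress gene, was higher by 0.67 ± 0.05, and CDKN1C, the inhibitor p57, by 0.56 ± 0.10. Of 19 p53 target genes, 2 were called higher and 0 lower (median -0.07), with the kinase PLK2 at 9.95, 10.01 and 10.09 against 10.73, 10.73 and 10.77 (0.73 ± 0.06, adjusted p = 9.56e-06).

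Of the growth factor signalling lists, that of EGFR and MAPK held lower calls only, and that of TGF-beta and YAP was split. Of 24 EGFR ligand and MAPK feedback genes, 0 were called higher and 4 lower (median -0.08), led by the ligand EREG, at 7.70, 7.72 and 7.78 against 7.28, 7.31 and 7.30 (-0.44 ± 0.07, adjusted p = 0.00453). EREG kept its call under all 12 alternatives. SPRED1 and PHLDA1 each lost it under 6 of them (highest adjusted p 0.0837 and 0.139), and SPRED2 when its probe sets were averaged (0.185). Of 19 TGF-beta and YAP target genes, 2 were called higher and 3 lower (median -0.07). CCN1 and the inhibitor of bHLH factors ID3 (0.38 ± 0.07) were higher, while CCN2 (-0.43 ± 0.08), the receptor kinase AXL (-0.49 ± 0.08) and AJUBA (-0.36 ± 0.06) were lower. The related genes CCN1 and CCN2 thus differed in opposite directions, with CCN2 at 5.89, 5.93 and 5.94 against 5.54, 5.43 and 5.49.

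Among metabolic lists, 0 of 17 cholesterol and fatty acid synthesis genes were called by limma (an unadjusted p under 0.05 was reached by 0 higher and 7 lower genes, median -0.11). Of 21 hypoxia and glycolysis genes, 1 was called higher and 2 lower (median -0.02), with the glucose transporter SLC2A1 lower by 0.34 ± 0.06. Of 17 ribosome biogenesis and MYC target genes, 0 were called higher and 1 lower (5.88%, a single gene, against 1.86% of all genes), ODC1 of polyamine synthesis (-0.27 ± 0.05). Over all 28 lists, 86 of the 526 genes tested were called, 53 higher and 33 lower (10.1% and 6.27%, against 1.86% each over all genes), and the lists were drawn up with results of these arrays known.

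In the list of 25 genes of the unfolded protein response and of amino acid stress, 0 were called higher and 5 lower (median -0.09). SLC7A5, an amino acid transporter chain, stood at 12.63, 12.62 and 12.67 with the intact receptor and at 12.25, 12.19 and 12.24 with the mutant receptor (-0.41 ± 0.06, adjusted p = 0.00319). The chaperones within this list led to a set of 16 endoplasmic reticulum chaperone genes that was drawn up after their values were seen, and its counts are a description only. PDIA4, a disulfide isomerase, stood at 10.40, 10.36 and 10.44 with vector, at 10.86, 10.80 and 10.84 with the intact receptor and at 10.51, 10.47 and 10.42 with the mutant receptor. The intact receptor arrays were the high ones, and the mutant arrays differed from them by -0.37 ± 0.05 (adjusted p = 0.00167).

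HSPA5, the master chaperone BiP, stood at 12.58, 12.67 and 12.65 with vector, at 12.86, 12.89 and 12.93 with the intact receptor and at 12.61, 12.64 and 12.63 with the mutant receptor (mutant minus intact -0.27 ± 0.05, adjusted p = 0.00777). HSP90B1, the chaperone GRP94, stood at 11.03, 11.09 and 11.04, at 11.35, 11.32 and 11.31, and at 11.05, 11.03 and 10.996 in the same order (-0.30 ± 0.05, adjusted p = 0.00360). CRELD2, a further resident protein of this compartment, stood at 10.07, 10.13 and 10.11, at 10.31, 10.38 and 10.46, and at 10.09, 10.10 and 10.03 (-0.31 ± 0.05, adjusted p = 0.00712). In each of these genes the intact receptor arrays lay above all vector and mutant arrays, although against vector they were not called (adjusted p 0.223 to 0.281). HSP90B1 lost its call when its probe sets were averaged (adjusted p = 0.0772).

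All 16 chaperone genes had a lower mean with the mutant receptor than with the intact receptor (-0.37 to -0.03, median -0.16). For 12 of them the mutant arrays lay wholly below the intact arrays, while 27.2% of all genes had no overlap in either direction. Of the 16, 4 were called lower, against 1.86% of all genes. The set was drawn up after the values were seen, so these shares are no test of it. Against vector, where only PDIA4 was called with the intact receptor (0.44, adjusted p = 0.0107), the 16 genes differed by 0.08 to 0.44 with the intact receptor and by -0.03 to 0.11 with the mutant receptor, 2 comparisons that share the vector arrays. Higher levels were not particular to the intact receptor. NICD was called above vector for DNAJC3 (0.43), SEL1L (0.36), DNAJB11 (0.28), HYOU1 (0.25) and CALR (0.22), with means above those of the intact receptor. It was called below vector for HERPUD1 (-0.33). PDIA4, HSPA5, HSP90B1 and CRELD2 differed by 0.05 to 0.12 between NICD and vector and were not called there.

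The promoters of 3 of the 4 called chaperones hold the letters CCAAT, then any 9 bases, then CCACG, the stress response element of such genes, on either strand. These letters were chosen after the values were seen and occur in 0.0769% of all 35116 promoters, or 27 of them, and in 6 of the 15 chaperone genes whose promoter was at hand. PDIA6, CALR and CANX, which were not called between the receptors, hold them too, so a match does not separate called from uncalled chaperones. Since the element is one known from such genes, its share among them is a description and no test. The matches are in capitals in the 250 bases before each gene start, given 5′ to 3′ on the gene's strand. The stretches lie at chr9:125241344-125241593 on the minus strand (HSPA5), chr12:103930160-103930409 on the plus strand (HSP90B1) and chr22:49918384-49918633 on the plus strand (CRELD2), in GRCh38.p14 from RefSeq.
HSPA5: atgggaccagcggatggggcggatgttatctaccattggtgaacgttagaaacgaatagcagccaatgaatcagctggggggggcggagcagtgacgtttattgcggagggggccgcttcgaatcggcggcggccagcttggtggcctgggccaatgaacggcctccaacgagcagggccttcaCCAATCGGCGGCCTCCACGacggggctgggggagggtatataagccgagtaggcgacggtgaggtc
HSP90B1: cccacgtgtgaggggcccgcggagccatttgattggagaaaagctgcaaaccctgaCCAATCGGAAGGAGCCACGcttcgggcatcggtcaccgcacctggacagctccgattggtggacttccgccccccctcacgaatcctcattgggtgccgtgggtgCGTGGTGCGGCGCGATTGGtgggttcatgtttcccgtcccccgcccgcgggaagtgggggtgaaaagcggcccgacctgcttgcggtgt
CRELD2: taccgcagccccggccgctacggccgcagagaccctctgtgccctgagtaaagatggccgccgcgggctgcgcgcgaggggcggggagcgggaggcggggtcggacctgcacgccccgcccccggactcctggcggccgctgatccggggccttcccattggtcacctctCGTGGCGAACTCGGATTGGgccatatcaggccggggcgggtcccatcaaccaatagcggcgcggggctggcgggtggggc
The matches begin at base -66 in HSPA5, at -194 and -89 in HSP90B1 and at -80 in CRELD2. PDIA4, with the largest difference, holds no match in this window.

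**Figure D4:**
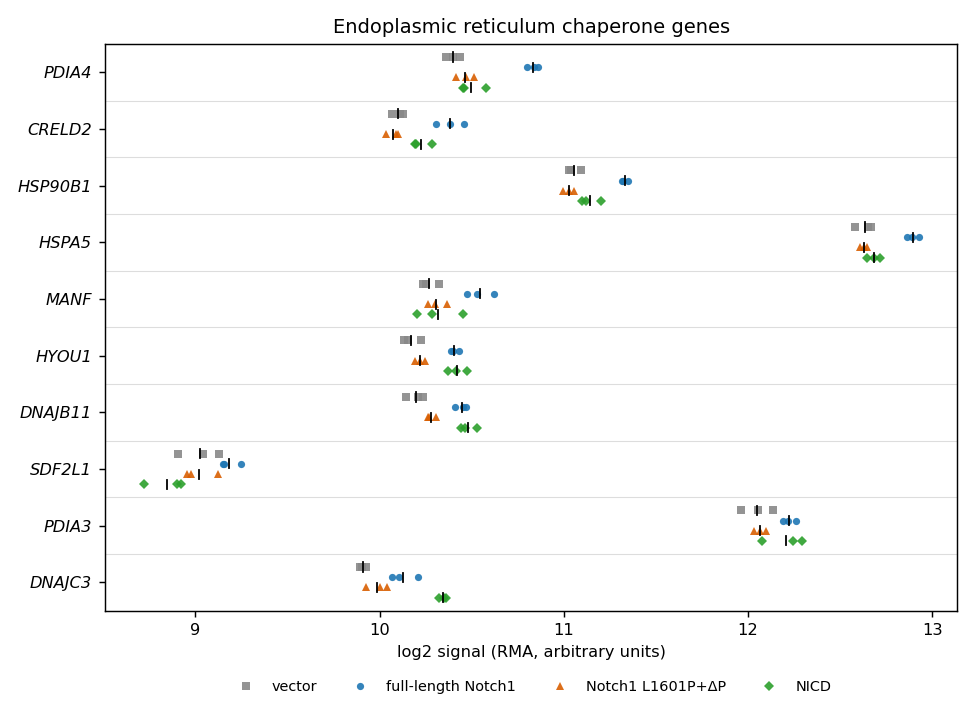
Points are log2 signals of single arrays for the 10 endoplasmic reticulum chaperone genes with the lowest mutant minus intact difference among the 16, and black ticks are means of 3 arrays. In PDIA4, CRELD2, HSP90B1 and HSPA5 the blue intact receptor arrays stand to the right of vector and of the mutant receptor.

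The difference between the receptors was then set beside that between NICD and vector, which uses the other 6 arrays and shares none with it. NICD against vector called 5460 genes (27.6%), 1887 higher (9.54%) and 3573 lower (18.1%). Of the 735 genes called between the receptors, 630 were called there too, 623 in the same direction and 7 in the opposite direction. A same sign was seen for 694 of the 735 (94.4%), against 65.3% of all genes. The size of the difference correlated across the 735 genes (Pearson 0.905, Spearman 0.908), as a description of genes that were read on the same arrays and are not independent. The NICD difference was the larger, by a median ratio of 2.18 among the genes higher with the mutant receptor and 2.41 among those lower. A contrast of the 2 differences was called for 497 of the 735 genes, against 12% of all genes.

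Some genes moved much more with NICD. HEY2 differed by 3.69 ± 0.08 between NICD and vector and by 0.21 ± 0.08 between the receptors (adjusted p of the contrast 9.57e-10). CXCL14 differed by 6.93 ± 0.12 and 1.67 ± 0.12 (adjusted p of the contrast 9.57e-10), and HEY1 by 3.35 ± 0.06 and 0.77 ± 0.06 (1.25e-09). HES1 differed by 0.16 ± 0.09 with NICD and 0.27 ± 0.09 between the receptors, and neither was called.

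At 115 called genes the receptor difference was larger in size than the NICD difference and of the same sign. FABP4, a fatty acid binding protein, stood at 5.17, 4.91 and 4.77 with the intact receptor and at 6.18, 5.998 and 6.23 with the mutant receptor (1.19 ± 0.14), against a NICD difference of 0.75 ± 0.14. IL1B differed by 0.79 between the receptors and 0.51 with NICD, and the ammonium transporter RHCG by 0.55 and 0.41. The interferon-induced IFITM1 (0.56 against 0.50) lost its call between the receptors without mutant array 2 and in a fit of the 6 arrays alone (highest adjusted p 0.0554). CRACD (-0.64 against -0.40) and FATE1 (0.54 against 0.07) were the others of the 6 named. These 6 were taken from the 115 by the size of the receptor difference, not by its excess over the NICD difference. FATE1 lost its call without each of the 6 arrays in turn except intact array 1, in a fit of the 6 arrays alone and after cyclic loess (0.123). For none of these 6 genes was the contrast of the 2 differences called by limma (adjusted p 0.121 to 0.853), and 2368 genes in all were.

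The 7 genes called in opposite directions were all lower with the mutant receptor and higher with NICD. PODXL, the sialomucin podocalyxin, stood at 8.07, 8.21 and 8.13 with the intact receptor and at 7.77, 7.80 and 7.76 with the mutant receptor (-0.36 ± 0.05), while NICD exceeded vector by 0.83 ± 0.05. MYO10, a motor of filopodia, stood at 9.67, 9.58 and 9.65 against 9.32, 9.32 and 9.39 (-0.29 ± 0.05) and was higher by 0.38 ± 0.05 with NICD. These calls held under all 12 alternatives. The others were DMD (-0.36 and 0.75), the cell surface protein KIRREL1 (-0.34 and 0.22), the calcium-binding NUCB2 (-0.38 and 0.32), the pentraxin PTX3 (-0.44 and 0.49) and SLC44A3 (-0.24 and 0.30), each of which lost its call between the receptors under some alternative.

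**Figure D5:**
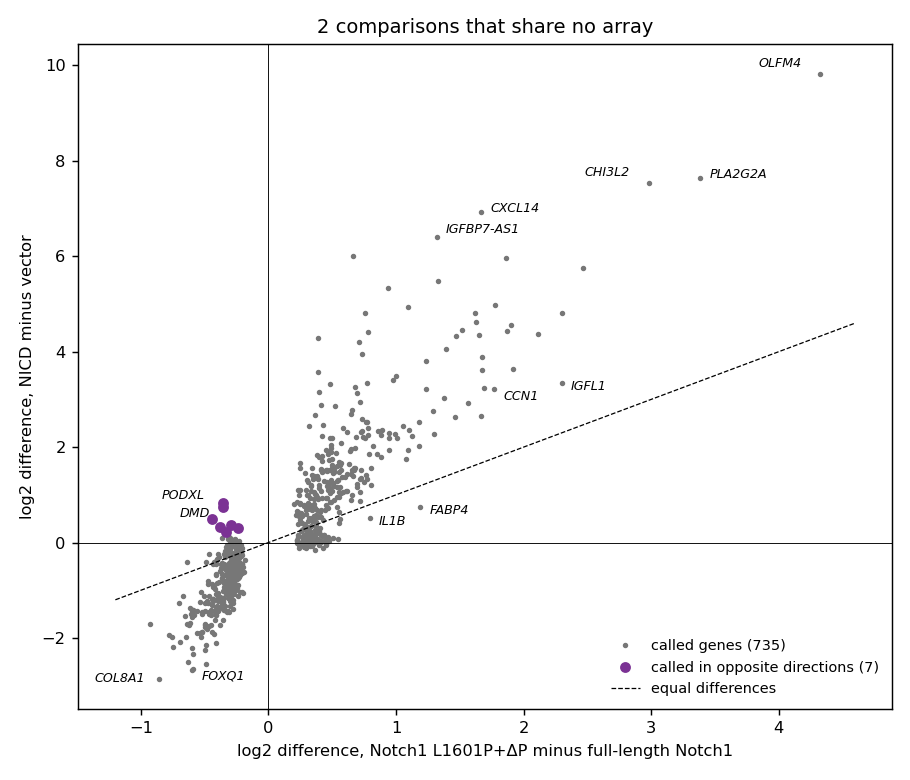
Each point is 1 of the 735 genes called between mutant and intact Notch1, with that log2 difference on the x axis and the log2 difference between NICD and vector on the y axis. Most points lie beyond the dashed line of equal differences, and the 7 purple points are called in opposite directions.

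Basal keratins (KRT5, KRT14) and the general epithelial genes CDH1 and EPCAM were bright, at percentile 89.9 or above of all genes by their mean over the 12 arrays. Markers of other cell types were spread over the range. For endothelium CDH5 lay at percentile 8.12, VWF at 32.7 and PECAM1 at 49, for blood cells PTPRC at 8.72, CD3E at 43.5 and HBB at 44.4, and for fibroblasts LUM at 4.6, COL1A1 at 62.8, FAP at 67.7 and DCN at 94.1. Of 9 fibroblast markers 1 was called between the receptors (POSTN), of 8 endothelial markers 0 by limma (with an unadjusted p under 0.05 in 1 higher and 0 lower genes), and of 8 blood cell markers 1 (CD14, 8.89, 8.82 and 8.91 against 9.57, 9.62 and 9.64). The mean level of the fibroblast list was 6.04 to 6.11 with the intact receptor and 6.32 to 6.34 with the mutant receptor, and that of the blood cell list 5.65 to 5.79 and 5.81 to 5.88. The median members differed by 0.036 and 0.099, and POSTN (2.11) and CD14 (0.74) were the largest differences within their lists. All 12 samples are labelled as the MCF-10A line, and no label names another cell type, so these values are read as signals of that line. In bulk samples of a line, a change in the share of cells that express a gene and a change in RNA per cell cannot be told apart. Neither was tested.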

How the data were processed

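RNA from 12 MCF-10A samples was read on Affymetrix arrays. The deposited values are log2 signals made by the authors, and RMA and limma are the tools named, without versions, per the submitters' processing notes. RMA corrects background, equalizes the quantiles of all arrays and summarises probes, so that a shift shared by most genes would not be visible. The number of arrays limits the precision, as depth has no counterpart here.

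Platform annotation gave 1 gene symbol to 41091 probe sets, several to 1801 and none to 11721, and 62 were controls. Each gene was read by its probe set with the highest mean over all 12 arrays (19775 genes, 10523 with several probe sets). All 12 arrays were fitted by group means in limma 3.58.1 under R 4.3.3 (8 residual and 4.09 prior degrees of freedom), and the fit was tested on simulated data. Tests were two-sided, and called means an adjusted p (Benjamini-Hochberg, over all genes) under 0.05. Differences carry the standard error of the fit and group means the SD over 3 arrays.

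The comparison, the 28 gene lists (575 genes, 526 tested, the other 49 not analysed here) and the rule for naming genes were chosen with earlier results of these data known. The text names NOTCH1, the 15 largest rises and 12 largest falls among called genes without overlapping arrays, members of the Notch lists, up to 4 called members per direction of every other list, up to 8 genes called oppositely with NICD and up to 6 with a larger difference than with NICD. Alternatives were the 6 compared arrays alone, the replicate number as a block, cyclic loess, leaving out genes with a mean log2 value under 5, the mean of a gene's probe sets, an intensity trend in the variance, and leaving out each of the 6 arrays. Promoter sequences are those of RefSeq, build GRCh38.p14.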

Additional observations from a re-analysis of the deposited data

Results flagged for a closer look

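For 7 genes the difference between the receptors and the difference between NICD and vector, which share no array, had opposite directions and both were called. The contrast of the 2 differences (mutant minus intact less NICD minus vector, limma over all 19775 genes) was -1.19 for PODXL (adjusted p = 2.77e-07), -1.11 for DMD (2.09e-05), -0.94 for PTX3 (0.00135), -0.70 for NUCB2 (0.000748), -0.67 for MYO10 (6.18e-05), -0.56 for KIRREL1 (0.000251) and -0.54 for SLC44A3 (0.000646). In each of them the mutant arrays lay below all intact arrays. Calls between the receptors were lost without mutant array 1 for DMD, PTX3, NUCB2 and SLC44A3, and for KIRREL1 and DMD when their probe sets were averaged. DMD then differed by -0.064 (adjusted p = 0.560), and its 3 other probe sets by -0.058 to 0.14.

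The gene-level test left out 13522 probe sets with several gene symbols or none. Of these, 115 were called between the receptors (69 higher and 46 lower with the mutant receptor), among 892 called over all 54675 probe sets (1.63%). The count was 45 without mutant array 1, 50 without mutant array 2, 73 without mutant array 3, 53 without intact array 2 and 45 without intact array 3.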

How the results depend on the processing

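The call counts, the list results, the same-sign share with NICD and the differences of named genes were recomputed under 12 alternatives, 6 of which left out 1 array. Results by probe set were recomputed under the same alternatives except the mean of a gene's probe sets. The chaperone counts, the promoter shares, the calls between intact receptor and vector and the contrast of the 2 differences were not recomputed. The 735 calls became 1253 with an intensity trend in the variance, and ranged from 403 to 642 without 1 array (228 to 317 higher and 162 to 326 lower). The 367 lower calls became 231 in a fit of the 6 compared arrays, 229 after cyclic loess, 557 without dim genes and 802 with the trend. The 115 calls among probe sets not tied to 1 symbol became 54 with the 6 arrays, 60 with the replicate block and 193 with the trend, and 45 to 82 without 1 array. The 86 called list genes became 133 with the trend. The replicate number as a block gave 584 calls, 547 of the 735 among them, and the numbers share no deviation (correlations of 0.005, 0.024 and 0.010 between same-numbered arrays of the 2 groups, and no array correlated best with its own number), so the samples share only a number. The dimmer NOTCH1 probe set gave -0.36 after cyclic loess and -0.45 to -0.40 without 1 array, and the brighter 0.045 after cyclic loess and -0.045 to 0.0086 without 1 array. NOTCH2 turned to 0.035 after cyclic loess and ran from -0.057 to 0.021 without 1 array, and NOTCH4 from -0.021 to 0.13. The same-sign share with NICD was 92.4% without dim genes and 91.8% to 96.3% without 1 array. Of 103 called genes named here or open to naming, 73 kept their call under all alternatives, 30 lost it under some, and 0 changed sign, while averaging probe sets turned the sign of 6 of the 735. Signals near the background of the arrays limit the folds of dim genes.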

Other observations

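Genes higher with the mutant receptor were on the whole dimmer than those lower with it. The median level over the 12 arrays was 7.48 for the 368 genes called higher and 8.74 for the 367 called lower. Of the 42 called genes with a mean under 5, 40 were higher with the mutant receptor and 2 lower. Over all genes, 14536 of 19775 had a mean of at least 5. A gene near the background of the arrays has little room to be lower, and how far this shaped the split was not tested.

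Of the 456 called genes with several probe sets, 328 had the same sign on all of them, 134 had at least 2 probe sets called, and 2 had a probe set called the other way.

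Of the 735 called genes, 105 were not called between NICD and vector, 75 of them higher and 30 lower with the mutant receptor.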
